A study of Mus musculus with 13 samples.

Results

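Transcription factors of the enteroendocrine lineage, Neurog3, Neurod1, Pax4, Pax6, Isl1, Insm1, Nkx2-2, Foxa1 and Foxa2, were compared between intestinal stem cells, their early progeny and villus epithelium. The 9 genes were chosen by symbol, and each was read from the probe set that named only that gene and had the highest mean over 13 arrays. They were 9 of 17097 genes measured in this way. The arrays (Affymetrix HT MG-430 PM) came from Lgr5-EGFP-ires-CreERT2 mice on a C57BL/6 background, in which GFP is expressed from the Lgr5 locus, and each sample pooled 3 mice. There were 4 arrays of intestinal GFPbright cells, which express the stem cell marker Lgr5 at a high level, 3 arrays of intestinal GFPdim cells, 3 arrays of villus epithelium and 3 arrays of sorted hair follicle cells, titled GFPdim, as an outgroup. The sources describe the villus samples both as isolated after sorting and as complete villus epithelium, so whether these cells passed a gate is not known. All groups carried the knock-in, none was given a treatment by the labels, and GFPdim cells were defined by low GFP and not by a marker of any 1 lineage.

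Enteroendocrine cells are the hormone-producing cells of the intestinal epithelium and descend from Lgr5-positive crypt stem cells through a secretory progenitor. The basic helix-loop-helix factor Neurog3 is switched on briefly in endocrine progenitors and is required for the lineage, and Neurod1, Pax4, Pax6, Isl1, Insm1 and Nkx2-2 act in the progenitors and in their maturing daughters. Foxa1 and Foxa2 are forkhead factors of the gut endoderm with a wider expression in the epithelium, and both are needed for several endocrine subtypes.

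The labels were checked before the comparison. A label field for the Lgr5 level named the opposite level to the title for GFPbright array 2 and for GFPdim arrays 2 and 3, and a high level for the villus and hair follicle arrays. Groups were taken from titles and source names. Lgr5 intensity was 532.8 to 793.1 in GFPbright, 12.6 to 66.1 in GFPdim, 4.8 to 6.8 in villus and 478.8 to 687.1 in hair follicle, so the arrays of GFPbright and GFPdim were ordered as their titles say and the hair follicle arrays were not low in Lgr5 RNA. Within a group, arrays correlated at 0.978 or above across genes and no pair was identical. GFPdim array 1 had the lowest 75th percentile of intensity, 37.6, against 40.6 to 52.1 on the other arrays. An intensity of 7.9, the 95th percentile of 84 probe sets of olfactory, vomeronasal and taste receptors, served as the level of probe sets without specific signal and is called the receptor level below.

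Markers of the cell types in each sample were summed over each list. GFPdim cells were mixed: beside the endocrine genes, 5 of 5 goblet cell markers, 4 of 4 measured enterocyte markers, 2 of 3 measured Paneth cell markers and 2 of 4 tuft cell markers rose from GFPbright to GFPdim. Of all genes, 6.32% rose in this comparison. The 2 Paneth cell markers that rose, Mmp7 and Itln1, fell from GFPdim to villus by 6.05 and 4.21 on the log2 scale (limma, adjusted p = 3.63e-10 and 6.62e-08). Lyz1, the other measured one, was called in neither step. A peak in GFPdim was thus not limited to endocrine genes. In villus, the summed intensity of 4 leukocyte markers was 230.7 to 365.8, against 29.2 to 36.2 over GFPbright and GFPdim arrays, and Ptprc, the pan-leukocyte antigen, was 113.1 to 188.2. Neuron markers matter here because several of the 9 factors also act in neurons. Of 5 measured ones, the group mean was above the receptor level for 0 in GFPbright and 0 in GFPdim. In villus the mean of Snap25 was above it (8.47) and that of Ret was equal to it (7.9). The summed intensity was 23.9 to 30.4 in GFPbright, 30.0 to 31.7 in GFPdim and 27.4 to 34.4 in villus. Hair follicle arrays held 5 of 5 keratinocyte markers and 2 of 6 markers of Merkel cells, the endocrine-like cells of the skin, the pair being the keratins Krt8 and Krt18. The part of these other cells in the results was not tested, and in such bulk samples fewer cells of a type and less RNA per cell cannot be told apart.

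Promoter sequences were read for all members that had an entry. RefSeq (GRCm38.p6) start sites gave an entry for 7 of the 9 genes, all but Insm1 and Pax4, with 10 windows of 250 bases before the start. Each window was searched for the E-box CANNTG, which basic helix-loop-helix factors such as Neurog3 and Neurod1 recognise and which reads the same way on both strands. Windows of Neurog3, Neurod1 and Isl1 are shown because these genes differed in their course into villus, where Neurog3 went under the receptor level while Neurod1 and Isl1 were lowered but kept a signal. They run 5′ to 3′ on the strand of the gene, chr10:62132840-62133089 (plus), chr2:79456637-79456886 (minus) and chr13:116309689-116309938 (minus), with the E-box in capitals.
Neurog3: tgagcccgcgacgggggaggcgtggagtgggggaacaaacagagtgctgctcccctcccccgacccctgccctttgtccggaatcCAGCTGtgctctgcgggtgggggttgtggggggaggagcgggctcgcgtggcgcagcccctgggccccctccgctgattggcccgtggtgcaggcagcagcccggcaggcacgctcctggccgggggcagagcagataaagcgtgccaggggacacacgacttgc
Neurod1: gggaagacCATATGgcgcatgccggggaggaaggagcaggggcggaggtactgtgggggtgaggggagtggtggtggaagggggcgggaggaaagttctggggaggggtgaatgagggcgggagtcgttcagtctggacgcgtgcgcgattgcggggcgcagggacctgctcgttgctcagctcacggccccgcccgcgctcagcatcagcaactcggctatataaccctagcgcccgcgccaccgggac
Isl1: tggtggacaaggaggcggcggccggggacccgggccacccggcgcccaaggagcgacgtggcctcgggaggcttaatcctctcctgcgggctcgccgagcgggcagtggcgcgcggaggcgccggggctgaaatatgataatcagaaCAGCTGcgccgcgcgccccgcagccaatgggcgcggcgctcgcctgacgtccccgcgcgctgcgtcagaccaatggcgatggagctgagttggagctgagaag
The E-box began 165 bases before the start in Neurog3, 242 in Neurod1 and 103 in Isl1. At least 1 E-box was held by 7 of the 10 member windows and by 66.2% of all 32851 windows, so that its presence did not set these genes apart. The Nkx2-2 window held 3 E-boxes, as many or more of which were found in 12.2% of all windows. The forkhead motif TGTTTAC, searched on both strands, was in 1 member window, that of Foxa1, and in 3.17% of all windows.

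The first comparison asked which of the factors were at a higher level in the early progeny than in the stem cells. From GFPbright to GFPdim, 6 of the 9 genes rose and 0 fell (limma, Benjamini-Hochberg adjusted p under 0.05 over all genes), whereas 6.32% of all genes rose and 10.4% fell. At an unadjusted p under 0.05, 1 gene, Foxa2, was lower. The genes that rose were Neurog3, Neurod1, Pax4, Isl1, Insm1 and Nkx2-2. The median difference was 1.97 on the log2 scale over the 9 genes and -0.04 over all genes. Among called genes of the whole array the share that rose was 37.9% as deposited and 51.2% after quantile normalization, under which the members' counts were again 6 and 0. They were also 6 and 0 when any 1 of the 7 GFPbright and GFPdim arrays was left out, those with conflicting labels included.

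**Figure D1:**
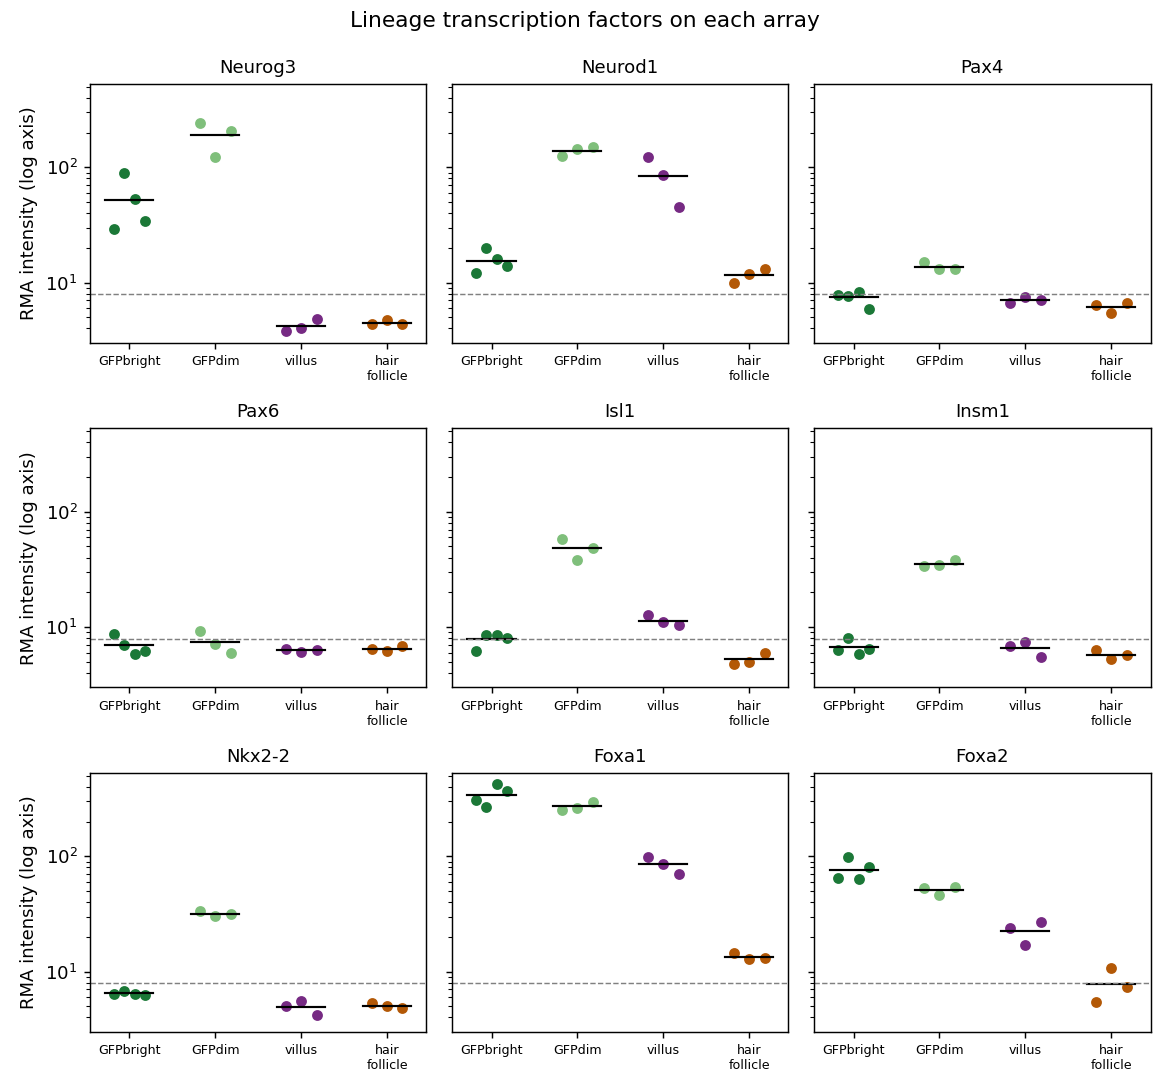
RMA intensity (log axis) of the 9 factors on each of 13 arrays, with 1 point per array, a bar at the mean of each group and a dashed line at the receptor level of 7.9. Neurog3, Neurod1, Isl1, Insm1, Nkx2-2 and Pax4 were higher on every GFPdim array than on any GFPbright array, and Neurog3 was 3.8 to 4.8 on the villus arrays.

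Neurog3, the factor that commits progenitors to the endocrine lineage, had intensities of 29.1, 89.5, 53.4 and 34.0 on GFPbright arrays 1 to 4 and 242.1, 123.5 and 205.8 on GFPdim arrays 1 to 3. All GFPbright arrays were above the receptor level and all GFPdim arrays were higher still, without overlap. The means were 51.5 ± 27.4 (SD, n = 4) and 190.5 ± 60.8 (SD, n = 3), a log2 difference of 1.97 ± 0.32 (SE) or 3.93-fold (limma, adjusted p = 0.000791). Neurog3 was thus detected in the GFPbright sort as well. The highest GFPbright value came from array 2, which also had the lowest Lgr5 (532.8) of its group. Chga (28.5), Chgb (193.5), Neurod1 (19.9), Cck, Gcg, Ghrl and Scg5 were highest on that array as well. Other genes were not. Gip (107.8), Cpe (12.4), Atoh1 (34.2) and Spdef (22.1) were highest on array 3 and Scg2 (5.7) on array 4, and Scg3 (8.2) was lowest on array 2. Without that array the difference was 2.29 (adjusted p = 6.9e-05). Within the 3 pairs of arrays that share a code in their titles, the differences were 3.06, 1.21 and 2.60. A second Neurog3 probe set was at 5.4, 13.8, 5.5 and 5.7 in GFPbright and 20.7, 9.8 and 22.5 in GFPdim, so its groups overlapped and most GFPbright arrays lay under the receptor level.

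Neurod1, a direct target of Neurog3 in the endocrine cascade, had intensities of 12, 19.9, 16 and 13.8 in GFPbright and 125.6, 144.6 and 149.0 in GFPdim. The groups were far apart, with the lowest GFPdim array above every GFPbright array. The mean rose from 15.4 ± 3.40 (SD, n = 4) to 139.7 ± 12.4 (SD, n = 3), a log2 difference of 3.20 ± 0.27 (SE) or 9.20-fold (limma, adjusted p = 2e-06), the largest difference among the 9 genes. The second Neurod1 probe set moved alike, from 9.7 to 15.9 in GFPbright to 116.7 to 178.5 in GFPdim.

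The zinc finger factor Insm1 and the homeodomain factor Nkx2-2 were near the receptor level in GFPbright. Insm1 was 6.3, 8.1, 5.8 and 6.5 in GFPbright and 34.1, 34.2 and 38.3 in GFPdim. Nkx2-2 was 6.4, 6.8, 6.4 and 6.3 in GFPbright and 33.3, 30.3 and 31.5 in GFPdim. Both thus went from about the receptor level or under it to a clear signal on every GFPdim array. Where the mean of the dimmer group was at or under 7.9, the fold was taken against 7.9 and is a lower bound, which gave at least 4.49-fold for Insm1 and at least 4.01-fold for Nkx2-2. The log2 differences were 2.42 ± 0.14 (SE, limma adjusted p = 7.62e-08) and 2.29 ± 0.11 (SE, adjusted p = 2.74e-08).

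The LIM homeodomain factor Isl1 was 6.2, 8.5, 8.5 and 8.1 in GFPbright and 58.5, 38.1 and 48.2 in GFPdim. GFPbright arrays 2 to 4 lay just above the receptor level and array 1 under it, and no GFPdim array came near them. The log2 difference was 2.61 ± 0.16 (SE, limma adjusted p = 1.46e-07), at least 6.02-fold. The second Isl1 probe set was 4.5 to 6.7 in GFPbright and 50.6 to 62.5 in GFPdim.

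The paired box factors gave weak signals. Pax4, an early factor that acts in part of the endocrine subtypes, was 7.8, 7.7, 8.3 and 5.9 in GFPbright and 15.1, 13 and 13.1 in GFPdim. This rise, the smallest that was called, was 0.90 ± 0.14 (SE) on the log2 scale or at least 1.73-fold (limma, adjusted p = 0.000445). Pax6, which activates hormone genes such as that of glucagon, was 8.7, 7.0, 5.8 and 6.2 in GFPbright and 9.2, 7.1 and 6.0 in GFPdim on its brightest probe set. These values overlapped at about the receptor level, and the difference of 0.10 (95% interval -0.25 to 0.44) was not called (adjusted p = 0.78).

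The probe sets of Pax6 disagreed. Of its 5 probe sets, that with the next highest mean was 4.5, 4.3, 4.9 and 5.1 in GFPbright, 17.3, 8.2 and 11.3 in GFPdim, 6.2, 5.4 and 6.4 in villus and 4.5, 5.5 and 4.4 in hair follicle. It was above the receptor level on the 3 GFPdim arrays and on no other array. When it stood for the gene, Pax6 rose by 1.32 on the log2 scale from GFPbright to GFPdim (limma, adjusted p = 0.00042) and fell by 0.97 from GFPdim to villus (adjusted p = 0.0018). The remaining 3 probe sets differed between GFPdim and GFPbright by -0.19 to 0.05. Whether Pax6 changed therefore depended on the probe set, and its group means on the brightest probe set were all below the receptor level.

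**Figure D2:**
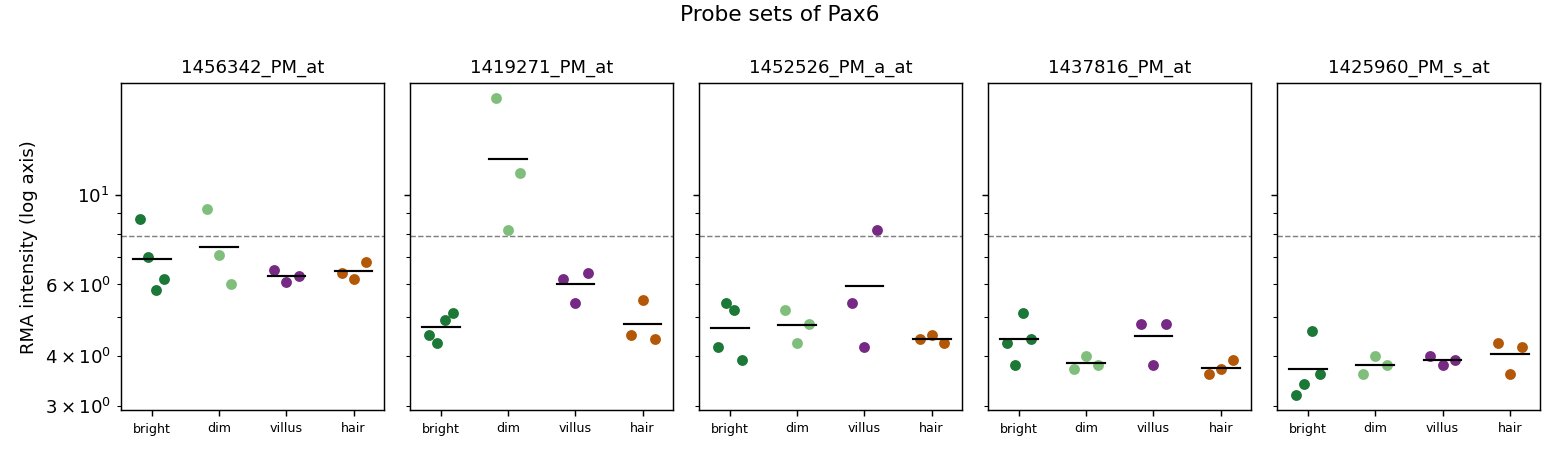
RMA intensity (log axis) of the 5 Pax6 probe sets on each array of GFPbright (bright), GFPdim (dim), villus and hair follicle (hair), with a bar at each group mean and a dashed line at 7.9. The probe set in the next panel after the first separated GFPdim (8.2 to 17.3) from all other arrays, while that in the first panel, the brightest on average, had overlapping groups.

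The forkhead factors did not rise. Foxa1 was 307.2, 266.1, 419.9 and 371.6 in GFPbright and 252.9, 263.8 and 296.0 in GFPdim. The arrays overlapped, and the log2 difference of -0.31 (95% interval -0.66 to 0.04) was not called (limma, adjusted p = 0.233). Foxa2 was 64.7, 97.8, 63.3 and 80.2 in GFPbright and 53.3, 46.2 and 54.6 in GFPdim. Its arrays did not overlap, with GFPdim lower, but the difference of -0.56 (95% interval -1.05 to -0.07) was not called over all genes (adjusted p = 0.121). With an offset of 16 added before the logarithm it was -0.44 and passed (adjusted p = 0.0466). Both genes were well above the receptor level in the stem cell sort, unlike Insm1, Nkx2-2 and Pax4, whose GFPbright means were under that level.

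The next comparison was between GFPdim cells and villus epithelium, where the mature cells reside. From GFPdim to villus 8 of the 9 genes fell and 0 rose, against 21.3% and 20.8% of all genes. The member that was not called was Pax6 on its brightest probe set. The median difference was -1.68 over the 9 genes and 0.02 over all genes.

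**Figure D3:**
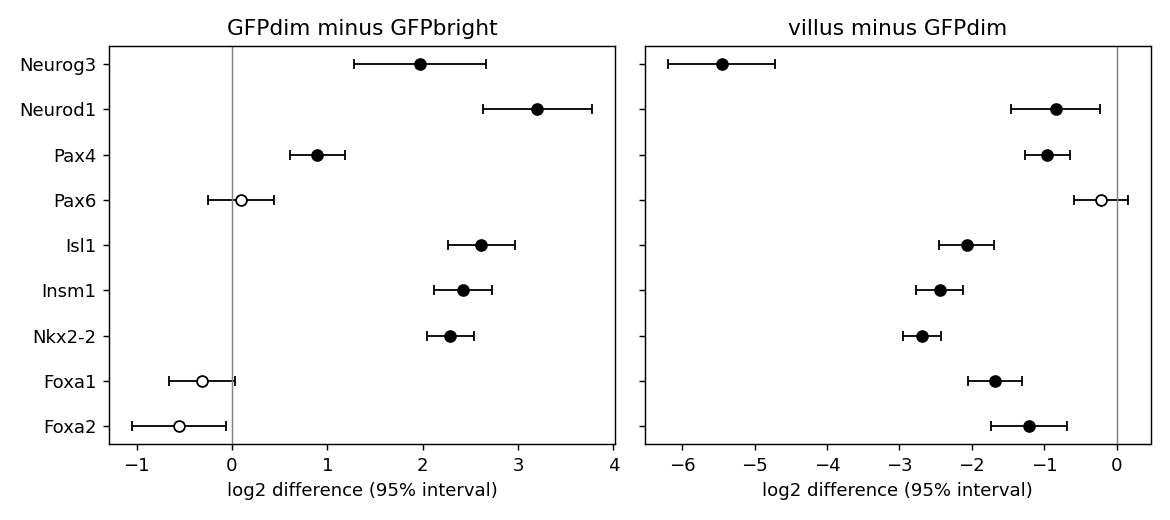
Log2 difference of the 9 factors between GFPdim and GFPbright (left) and between villus and GFPdim (right), with 95% intervals from the limma fit over 13 arrays. Filled points passed an adjusted p of 0.05, and open points did not. On the left the 6 filled points lie above 0 and the intervals of Pax6 and Foxa1 cross it. Foxa2 is open there although its interval stays below 0 (-1.05 to -0.07). On the right Neurog3 lies lowest at -5.45.

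Neurog3 was 3.8, 4.0 and 4.8 on the villus arrays, all under the receptor level. The difference from GFPdim was -5.45 ± 0.34 (SE) on the log2 scale, at least 23.2-fold (limma, adjusted p = 1.77e-08). Villus was also under GFPbright, by at least 5.90-fold (log2 difference -3.48 ± 0.32, SE, adjusted p = 3.96e-07), so that Neurog3 was higher in the stem cell sort than in the villus. On the second, dimmer probe set the villus arrays were 4.1 to 5.6 and the difference from GFPbright was -0.56 (adjusted p = 0.19).

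Insm1 and Nkx2-2 followed the same course. Insm1 was 6.8, 7.4 and 5.5 in villus, a log2 difference from GFPdim of -2.44 ± 0.15 (SE, limma adjusted p = 1.49e-08) or at least 4.49-fold. Nkx2-2 was 5.0, 5.6 and 4.2 in villus, a difference of -2.69 ± 0.12 (SE, adjusted p = 8.04e-10) or at least 4.01-fold. The mean of both genes was thus above the receptor level in GFPdim alone of the 4 groups. Pax4, at 6.6, 7.5 and 7.1 in villus, shared this pattern at a lower signal, with a difference of -0.96 ± 0.14 (SE, adjusted p = 8.23e-05).

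Isl1 was lowered but kept a signal. Its villus arrays were 12.7, 11.0 and 10.4, below every GFPdim array and above every GFPbright array. The difference from GFPdim was -2.07 ± 0.18 (SE) or 4.20-fold (limma, adjusted p = 3.3e-07). Against GFPbright it was 0.55 ± 0.16 (SE), at least 1.43-fold (adjusted p = 0.0127), a call that was lost without villus array 1 (adjusted p = 0.0634) and with the offset of 16 (0.0899).

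Neurod1 was lowered as well, to an extent that differed between its probe sets. Its villus arrays were 121.8, 85.0 and 45.6, a wide spread that lay just under the 3 GFPdim arrays. The mean of 84.1 ± 38.1 (SD, n = 3) was 0.84 ± 0.28 (SE) lower than in GFPdim on the log2 scale or 1.79-fold (limma, adjusted p = 0.028). This call was lost without GFPdim array 2 (adjusted p = 0.0688), GFPdim array 3 (0.078) or villus array 3, without which the difference was -0.45 (0.132), and when only the arrays compared were fitted (0.0721). The second probe set was 73.0, 61.7 and 29.6 in villus and 178.5, 126.6 and 116.7 in GFPdim, without overlap. When it stood for the gene, Neurod1 was 1.44 lower in villus on the log2 scale (adjusted p = 0.00226). Against GFPbright, Neurod1 was 5.14-fold higher in villus (log2 difference 2.36 ± 0.27, SE, adjusted p = 3.1e-06).

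Foxa1 and Foxa2 fell as well from GFPdim to villus. Foxa1 was 99.3, 85.5 and 70.2 in villus, below every crypt array, with a difference from GFPdim of -1.68 ± 0.17 (SE) or 3.21-fold (limma, adjusted p = 2.27e-06). Foxa2 was 23.8, 17.1 and 26.7, a difference of -1.21 ± 0.24 (SE) or 2.31-fold (adjusted p = 0.000935). Both stayed above the receptor level on all villus arrays.

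Between villus and GFPbright, 2 of the 9 genes were higher in villus (Neurod1 and Isl1) and 4 were lower (Neurog3, Nkx2-2, Foxa1 and Foxa2), against 22.6% and 26.3% of all genes. Foxa1 was 3.99-fold lower (limma, adjusted p = 1.14e-07) and Foxa2 3.40-fold lower (adjusted p = 1.22e-05). Nkx2-2 was called with a difference of -0.40 (adjusted p = 0.00863), but both groups were under the receptor level, so no fold is given, and the call was lost without villus array 3 (adjusted p = 0.0538). Pax4, Pax6 and Insm1 were under that level in both groups and were not called. The 2 of 9 members that were higher are close to the share of all genes. The 3 comparisons among intestinal groups share arrays and are not independent of each other.

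The levels of the groups can thus be put in order within each gene. For Neurog3 the order was GFPdim, GFPbright and then villus, each step beyond the spread of the arrays on the brighter probe set. On its second probe set the GFPbright arrays overlapped those of GFPdim and those of villus. For Neurod1 and Isl1 the order was GFPdim, villus and GFPbright. The step from GFPdim to villus for Neurod1 was called on both probe sets but lost its call without single arrays on the first. For Insm1, Nkx2-2 and Pax4, GFPdim stood first and the other groups lay at or under the receptor level. For Foxa1 and Foxa2 it was GFPbright, GFPdim and villus, of which GFPbright and GFPdim were not separated by the test.

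The levels in villus were next set beside those of other endocrine genes in the same RNA. Expressed as the villus level in percent of the GFPdim level, Neurod1 kept 55.9% (95% interval 36.6 to 85.4), Foxa2 43.2%, Foxa1 31.1% and Isl1 23.8% (18.3 to 31.0). On the second probe sets, the share was 37.0% (22.8 to 60.04) for Neurod1, under that of Foxa2, and 19.0% (15.3 to 23.6) for Isl1, so the order of Neurod1 and the forkhead factors was not settled. Neurog3 was at 2.28%, where the receptor level itself would be 4.31%, so its share in villus was not measurable. The granule genes Chga and Chgb kept 32.5% and 34.7%, the lowest shares on their list. The other granule genes with a GFPdim mean above the receptor level kept from 63.2% (Cpe) to 128% (Scg2). No change among these others was called. Hormone genes spread on both sides, from Tac1 at 2.88% and Gcg at 9.28% to Sct at 261%, Pyy at 366% and Nts at 1608%.

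**Figure D4:**
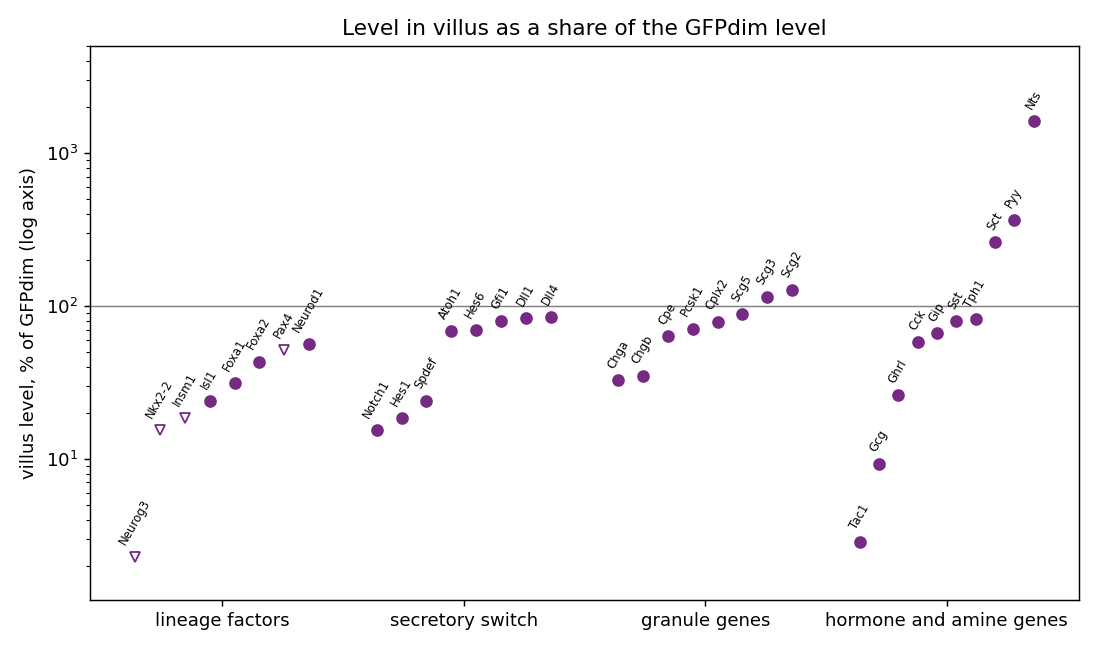
Villus level as a percentage of the GFPdim level (log axis) for the lineage factors, genes of the secretory switch, granule genes and hormone and amine genes whose GFPdim mean was above the receptor level. Open triangles mark genes whose villus mean was at or under that level, and the line at 100% marks equal levels. Each gene is shown by its brightest probe set. All lineage factors shown lie below the line, from 2.28% (Neurog3) to 55.9% (Neurod1), whereas Nts, Sct and Pyy lie above it.

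A mean of 5 genes of endocrine granules (Chga, Chgb, Scg3, Scg5 and Pcsk1n) was itself 0.67 lower in villus than in GFPdim on the log2 scale. Relative to this mean, 6 members were lower in villus with no overlap between arrays, at -4.78 for Neurog3, -2.02 for Nkx2-2, -1.77 for Insm1, -1.40 for Isl1, -1.01 for Foxa1 and -0.54 for Foxa2. Each had an exact two-sided permutation p of 0.1, the smallest that 3 against 3 arrays can give, and 0.15 after adjustment over the 9 genes. The share of all genes without overlap against this mean was not computed. The counts without overlap given here therefore describe the members and have no background beside them. Neurod1 moved by -0.17 and overlapped. Foxa1 and Foxa2 had their highest means in GFPbright (341.2 and 76.5), where the mean of the 5 granule genes was 3.76, against 6.39 in GFPdim. Which cells gave their signal was not tested, so their values here are not levels within endocrine cells. Pcsk1n was under the receptor level in every group. Without it, a choice made after the data were seen, the reference was 0.78 lower in villus, 5 members were lower without overlap, and Foxa2 overlapped (-0.43). The villus values of Neurog3, Insm1 and Nkx2-2 were under the receptor level, and raising them to it gave differences from the reference of 4 genes of -3.75, -1.38 and -1.22, which are bounds on falls at least that large. With Chga alone as the reference, 3 members, Neurog3, Nkx2-2 and Insm1, were again lower without overlap (-3.83, -1.07 and -0.82 as measured), and Isl1 and Foxa1 overlapped (-0.45 and -0.06). Foxa2, Pax4 and Neurod1 changed sign (0.41, 0.66 and 0.78), and 2 members, Neurod1 and Pax6 (1.40), were higher in villus without overlap, Pax6 with both group means under the receptor level. Of the members, only Neurog3, Nkx2-2 and Insm1 were thus lower without overlap against each of these references, all made of granule genes. Hormone genes, which moved in both directions, were not used as a reference.

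Hair follicle served as an outgroup outside the intestine. Against GFPdim, 8 of the 9 genes were lower in hair follicle and 0 were higher, against 25.2% and 21% of all genes. Neurog3, Isl1, Insm1, Nkx2-2, Pax4 and Pax6 were under the receptor level on all hair follicle arrays, the highest being 6.8. Foxa1 was 14.5, 12.9 and 13, which was 25.0-fold lower than in GFPbright (log2 difference -4.64 ± 0.16, SE, limma adjusted p = 1.41e-11). Foxa2 was 5.4, 10.7 and 7.3, at least 9.53-fold lower (adjusted p = 1.95e-08).

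Against GFPbright, 5 members were lower in hair follicle (Neurog3, Isl1, Nkx2-2, Foxa1 and Foxa2) and 0 higher, against 29.1% and 19.4% of all genes. For Isl1 and Nkx2-2 the means of both groups were under the receptor level, although 3 of the 4 GFPbright arrays of Isl1 were just above it. The call of Isl1 was lost with the offset of 16 (adjusted p = 0.169) and on its next probe set (0.768), and that of Nkx2-2 without hair follicle array 3 (0.0572). Pax4 was not called (adjusted p = 0.124) but was without GFPbright array 4 (0.0245). Neurod1 was 9.9, 11.9 and 13 in hair follicle, a range that overlapped GFPbright (difference -0.39, 95% interval -0.97 to 0.18, adjusted p = 0.261). Its signal in GFPbright was therefore not separated from that in the outgroup on this probe set, while on the next one it was 0.79 lower in hair follicle (adjusted p = 0.0439). Its level in villus was 6.76-fold above hair follicle (limma, adjusted p = 1.02e-06). Against villus, 4 members were lower in hair follicle (Neurod1, Isl1, Foxa1 and Foxa2) and 0 higher, where 27.4% and 26.9% of all genes were.

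Other genes of the pathway were counted on lists. Of the 8 genes of the secretory switch, at which Notch signalling decides between absorptive and secretory fates, 5 rose from GFPbright to GFPdim and 2 fell (median difference 0.71). Of all genes, 6.32% rose and 10.4% fell. Atoh1, the factor that starts the secretory fate, went from 16.9 to 34.2 in GFPbright to 105.6 to 137.3 in GFPdim (limma, log2 difference 2.23 ± 0.20, SE, adjusted p = 4.9e-06) and, unlike Neurog3, was still 71.5 to 91.3 in villus (adjusted p of the step to villus 0.0562). Spdef, a factor of goblet and Paneth cells, rose by 3.47 ± 0.21 (SE, adjusted p = 1.07e-07). Notch1, the receptor, fell by 2.09 ± 0.16 (SE, adjusted p = 1.16e-06), and Hes1, its target that represses Atoh1, was 0.85 lower and not called (adjusted p = 0.145). From GFPdim to villus 4 of the 8 fell (Spdef, Hes1, Hes6 and Notch1) and 0 rose, against 21.3% and 20.8% of all genes.

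Of 12 measured genes among 16 other factors tied to endocrine cells, 3 rose (Myt1, St18 and Etv1) and 3 fell (Rfx3, Sox4 and Mnx1) from GFPbright to GFPdim, with a median difference of 0.32. These counts stand beside 6.32% and 10.4% of all genes. St18, a zinc finger factor of the Myt1 family, was 4.0 to 4.8 in GFPbright, 10.5 to 15.4 in GFPdim and 3.7 to 5.3 in villus, the course of Insm1 and Nkx2-2. Sox4, which is also expressed widely in progenitors, fell by 1.63 ± 0.16 (SE, limma adjusted p = 9.43e-06) and by a further 3.92 ± 0.17 (SE) in villus. Mnx1 fell by 1.65 ± 0.24 (SE, adjusted p = 0.000316). From GFPdim to villus 7 of the 12 fell (Rfx3, Myt1, St18, Etv1, Sox4, Runx1t1 and Mnx1) and 1 rose. The shares of all genes were 21.3% and 20.8%. The 1 that rose was Pdx1, which patterns the proximal intestine, by 1.85 ± 0.28 (SE, limma adjusted p = 9.08e-05). A fall into villus was thus not particular to the members.

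The products of the lineage rose with the factors. Of 12 hormone and amine genes 10 rose from GFPbright to GFPdim and 0 fell (median difference 4.63), and of 11 measured granule genes 9 rose and 0 fell (median difference 2.11). The shares of all genes were 6.32% and 10.4%. Cck, the gene of cholecystokinin, was 5.9 to 13 in GFPbright and 493.2 to 633.4 in GFPdim, a log2 difference of 6.08 ± 0.25 (SE, limma adjusted p = 5.66e-09). Gcg, which encodes glucagon-like peptides, rose by 5.45 ± 0.30 (SE, adjusted p = 6.24e-08) and Chga by 5.0 ± 0.29 (SE, adjusted p = 7.12e-08). From GFPdim to villus 4 of the 12 hormone and amine genes fell (Cck, Gcg, Ghrl and Tac1) and 3 rose (Nts, Sct and Pyy), against 21.3% and 20.8% of all genes. Of the 11 granule genes 2 fell (Chga and Chgb) and 0 rose. The 3 that rose and the 2 granule genes that fell are close to the shares of all genes.

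Relatives of the 9 factors were read as well. Of 17 measured paralogs 0 rose and 0 fell from GFPbright to GFPdim (limma, median difference 0.03), and 1 was higher at an unadjusted p under 0.05. Of all genes, 6.32% rose and 10.4% fell. The mean was above the receptor level for 3 of the 17 paralogs in GFPbright and 4 in GFPdim, so most gave no signal to compare. Foxa3 kept to the course of Foxa1, at 131.0 to 179.7 in GFPbright, 127.0 to 142.8 in GFPdim and 38.0 to 49.1 in villus, where it fell by 1.65 ± 0.14 (SE, adjusted p = 4.5e-07). Pax8 was the paralog that rose in villus, from 7.8 to 11.0 in GFPdim to 28.6 to 39.5 (log2 difference 1.89 ± 0.17, SE, adjusted p = 5.83e-07).

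The genes most alike in pattern were found by Pearson's r of log2 values over the 13 arrays, among 11998 other genes with a group mean above the receptor level. The arrays fall into 4 groups, so these values describe group differences and carry no p. Insm1 and Nkx2-2 were each among the 3 genes most like the other (r = 0.987), and both were most like Tac1, the gene of substance P (0.990 and 0.987). Neurod1 was most like Syt7 (0.986), Ghrl (0.985) and Scg5 (0.983), genes of exocytosis, ghrelin and granules. Isl1 was most like Gcg (0.978), Trpa1 (0.973) and Spdef (0.967), the last a factor of goblet and Paneth cells. Pax4 was most like Gfra3 (0.9605), Hpd (0.9545) and Tac1 (0.943). Pax6, whose group means lay under the receptor level, had Lurap1 as its nearest gene (0.8865, among 11999 genes). The nearest gene to Neurog3 was the Paneth cell defensin gene Defa21 (0.979), followed by Pdia4 (0.976) and Spcs2 (0.972), which act in the endoplasmic reticulum. Foxa1 was most like Foxa3 (0.993) and the epithelial keratin Krt18 (0.991), and Foxa2 like Ttc32 (0.987) and Nipsnap1 (0.987).

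Of the 9 genes, 5 lie on chromosome 2 (Neurod1, Pax6, Insm1, Nkx2-2 and Foxa2), and Insm1, Nkx2-2 and Foxa2 lie near each other. The RefSeq order from Insm1 to Foxa2 held 36 genes, of which 8 were measured, these 3 members included. Among the neighbours, Kiz, a centrosome gene, was 1.12 lower in GFPdim than in GFPbright on the log2 scale (limma, adjusted p = 0.000964), Xrn2 was 0.56 lower (0.0296) and Ralgapa2 was 0.44 lower (0.0437), while Pax1 differed by 0.03 (0.933) and the non-coding 9030622O22Rik by 0.46 (0.0786). The measured neighbours between Insm1 and Nkx2-2, which are Ralgapa2, Kiz and Xrn2, were thus lower in GFPdim, where both factors were higher. In this comparison 10.4% of all genes fell. The neighbours were not read under the alternatives, quantile normalization included.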

How the data were processed

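The deposited values were intensities on a linear scale, made by the authors in Affymetrix Power Tools with RMA-sketch (version not given in the sources used here), which corrects background, normalizes across arrays and summarises each probe set. They were taken to log2 without further normalization. Of 45141 probe sets, 28898 named 1 gene in the platform annotation, 551 named several and 15692 had no entry there and were left aside. All 9 members' identifiers were found in the RefSeq table. This left 17097 genes, each read from 1 probe set, that of the highest mean log2. The number of arrays limits the precision.

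Groups were compared with limma 3.58.1 in R 4.3.3 (lmFit, contrasts.fit, eBayes) on all 13 arrays, with Benjamini-Hochberg adjustment over all genes, and a gene was called at an adjusted p under 0.05. The fit was tested on simulated data. Python 3.11.15, scipy 1.17.1 and matplotlib 3.10.9 were used for the exact tests and figures. Samples were pools of 3 mice, nothing more is said of their independence, and p-values measure the spread between these samples. GFPbright and GFPdim arrays 1 and 1, 3 and 2, and 4 and 3 share a code in their titles. Their residuals correlated at 0.291, 0.451 and 0.320 across genes. Correlations between arrays of different codes were not computed, so these values cannot show that the code marks a pair. The code was taken as a pairing and fitted as a block as an alternative. What the code stands for is not stated. Hair follicle array 2 has the same code as GFPbright array 3 and GFPdim array 2 and was not part of the block. Values are intensities per array or mean ± SD, and differences are on the log2 scale, with the standard error from limma.

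All 9 members were named in every comparison. Of each other list, up to 4 genes with the largest difference from GFPbright to GFPdim or from GFPdim to villus were named, along with members listed by a count. The 3 most similar genes and the genes between Insm1 and Foxa2 were the other named genes. The members and lists were chosen with earlier results of these data known. Alternatives were quantile normalization, an offset of 16, a fit of the groups compared only, all probe sets, a filter at the receptor level, the next probe set of a gene, the replicate block, the t-test that the study names (the methods' t-test), Chga as the reference and leaving out each array. A reference without Pcsk1n, also with members raised to the receptor level, was added after seeing the data.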

Additional observations from a re-analysis of the deposited data

Results flagged for a closer look

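Values that lie far from the rest of their group were looked for in the 4 GFPbright arrays, over the 16 probe sets of the 9 genes, and groups of 3 arrays were not tested. The gap between the extreme array and its nearest neighbour, as a share of the range of the group, passed 0.829 for 2 probe sets, and chance flags about 1 in 20 groups. For Isl1 the lowest array was GFPbright array 1 (6.2 against 8.1 to 8.5, ratio 0.847). For the second Neurog3 probe set the highest was GFPbright array 2 (13.8 against 5.4 to 5.7, ratio 0.942), the array that was also highest on the first Neurog3 probe set.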

How the results depend on the processing

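For the 6 comparisons, the number of the 9 genes called at an adjusted p under 0.05 differed by at most 1 from the values reported under each alternative that was run. Relative to endocrine granule genes, the 6 members lower in villus without overlap became 3 with Chga alone as the reference, with 2 higher, and were 5 to 7 under the other alternatives, with 0 or 1 higher. From GFPbright to GFPdim, the fit with the replicate block, in which arrays of the same title code were paired, called 6 members, as did the fit without it, and 2553 genes against 2853 in all. It changed the call of no member. The methods' t-test, run between villus and GFPbright, called 6 members after Benjamini-Hochberg adjustment and 4 at an unadjusted p under 0.01, and 8058 and 7141 genes, against 8361 genes with limma.

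Of 687 results for single genes under alternatives, 660 kept direction and call, 11 lost the call, 6 gained it and 10 changed sign. The changes of sign were all in differences that were not called. For Pax6 they were GFPdim minus GFPbright without GFPdim array 1 (-0.068, range over left-out arrays to 0.241), hair follicle minus GFPbright without GFPbright array 1 (0.033, from -0.162), and with the next probe set villus minus GFPbright (0.35), hair follicle minus GFPbright (0.026) and hair follicle minus villus (-0.33). For Insm1, villus minus GFPbright was 0.074 without GFPbright array 2 and 0.099 without villus array 3, in a range from -0.115. For Nkx2-2, hair follicle minus villus was -0.073 without villus array 3 and -0.0001 without hair follicle array 1, in a range to 0.134. For Neurog3, hair follicle minus villus was -0.28 with the next probe set. The lost calls were Neurod1 from GFPdim to villus, Neurog3 from GFPbright to villus on the next probe set, and the small differences of Isl1 and Nkx2-2 near the receptor level, where signal over background limits what can be measured. Causes were not tested.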
